A study of Homo sapiens with 4 samples.

Results

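The genes described here are 10 of the 34755 gene symbols on the array: the endoplasmic reticulum (ER) chaperones HSPA5, HSP90B1, HYOU1 and CALR, their partners DNAJB9 and SDF2L1, the disulfide isomerase PDIA4, the degradation factors HERPUD1 and EDEM1, and the transcription factor XBP1. They were chosen by name as genes of the ATF6 and XBP1 branches of the unfolded protein response, and every probe carrying one of these symbols in the authors' table was taken, which gave 11 probes. SUM149, a human cell line established from an inflammatory breast cancer, was either left untreated or exposed to 2.5 uM of Ricolinostat (ACY1215), an inhibitor of the cytosolic deacetylase HDAC6, for 3, 6 or 12 hours. Each of these 4 states was hybridized to 1 two-colour Agilent array, with the sample in Cy5 and, in Cy3, a reference that the labels call a pool of all SUM149 samples. Vehicle-treated cells at 3, 6 or 12 hours were not analysed here, so the drug, its solvent and the time in culture cannot be told apart.

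Proteins that enter the secretory pathway fold inside the ER with the help of chaperones. When unfolded proteins build up there, the sensors IRE1 (gene ERN1), PERK (EIF2AK3) and ATF6 start the unfolded protein response. IRE1 cuts the XBP1 messenger so that it encodes an active factor, and ATF6 is cleaved in the Golgi to release one. Both factors bind the ER stress response element of chaperone and degradation genes. HSPA5, the Hsp70 of the ER, also holds the sensors inactive and is the usual marker of the response. XBP1 is highly transcribed in secretory cells and in luminal breast cancers.

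All values below are log2 ratios of Cy5 over Cy3 after normalization, or their change against untreated cells. A reference shared by the arrays drops out of such a change only where its signal is the same on each array. For some probes it was not, so Cy5 alone is given beside the ratio for several genes. A log2 change of 1 is a 2-fold change. With 1 array per time point there is no test between time points, and the only error at hand is technical: for 297 probes printed in 9 or more spots, the median SD of a log2 change between spots was 0.11 for the 3-hour, 0.11 for the 6-hour and 0.10 for the 12-hour array. The technical SDs named below are these medians. The 95th percentile of the SDs was 0.31 at 3 hours, against 0.18 at 6 hours and 0.17 at 12 hours. A 3-hour value of a probe with 1 spot can therefore be less certain than its median SD shows. This technical error holds no spread between cultures. A gene counts as measured when the scanner software flagged its probe as well above background for Cy5 and for Cy3 on each of the arrays compared. The 3-hour comparison had 20766 such genes, the 6-hour comparison 20342 and the 12-hour comparison 20479. All 11 probes of the 10 genes passed this on all 4 arrays. The XBP1 probe was printed in 10 spots and the other 10 probes in 1 spot each.

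The arrays themselves set limits on these values. The median Cy5 signal of a spot was 36 to 40 units over a local background of 24 units, no spot was saturated, and all 4 arrays lay on 1 slide with 1 scan time. Areas with a defect covered 3.38% of the spots of the untreated array and 4.71% of the 3-hour array, and 1 spot of XBP1, on the 3-hour array, was the only spot of the 10 genes in such an area. The keratins, cadherins and other epithelial and basal markers of the SUM149 label were all above background in Cy5 on every array (9 of 9), and the summed normalized Cy5 signal of the 8 with a value on all arrays ran from 86780 to 125000. Of 11 markers of immune, endothelial, stromal, hepatic and hormone receptor-positive cells on the array, 10 also passed the background flag, the 11 with a summed signal of 3123 to 3666, and PGR did not pass it on any array. Single markers of the 2 groups overlapped. The highest of the 11 had a normalized log2 Cy5 signal of 10.37 to 10.85, and the lowest of the 8 had 9.15 to 9.79. Ratios of XBP1, HERPUD1 and DNAJB9 were below -1.1 on every array, whereas a pool of the 4 samples would lie between them. The reference was therefore not read as a level of these cells. No dye was swapped, so a dye effect on single probes was not measured.

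The 10 genes were chosen by name as genes of both branches, whose factors act at a known element. That 7 of their promoters hold one of its forms is therefore no independent result. The stretches that carry these forms are shown as a description of sequence. RefSeq promoters on GRCh38.p14, 250 bases before to 50 bases after each start, were searched on both strands for the ER stress response element, which is CCAAT, 9 bases and CCACG, and for its second form, ATTGG, 1 base and CCACG. The capitals mark the element, CGTGG and ATTGG being CCACG and CCAAT read from the other strand, and 10 bases are given on either side, 5′ to 3′ on the strand of the gene.
HSPA5: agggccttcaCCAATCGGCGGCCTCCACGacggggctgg
XBP1: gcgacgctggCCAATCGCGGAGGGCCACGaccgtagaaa
HSP90B1, far from the start: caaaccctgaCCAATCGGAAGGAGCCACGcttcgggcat
HSP90B1, near the start: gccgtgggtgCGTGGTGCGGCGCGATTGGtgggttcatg
CALR: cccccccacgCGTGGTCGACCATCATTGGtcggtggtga
HERPUD1: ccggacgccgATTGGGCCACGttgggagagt
SDF2L1: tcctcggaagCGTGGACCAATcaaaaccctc
HYOU1, far from the start: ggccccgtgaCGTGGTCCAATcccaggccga
HYOU1, near the start: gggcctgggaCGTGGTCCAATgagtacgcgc

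The first form stood in the promoters of 4 of the 10 genes, HSPA5 (chr9:125241381-125241419, minus strand), XBP1 (chr22:28800593-28800631, minus), HSP90B1 (chr12:103930206-103930244 and chr12:103930311-103930349, plus) and CALR (chr19:12938374-12938412, plus). Over the whole table it stood in 0.0769% of 35116 promoters. The second form stood in the promoters of HERPUD1 (chr16:56932015-56932045, plus), SDF2L1 (chr22:21642104-21642134, plus) and HYOU1 (chr11:119057370-119057400 and chr11:119057264-119057294, minus), and in 0.0541% of all promoters. All of these stretches lie before the start of transcription, the element of XBP1 being the closest, at bases -52 to -34 from it, and that of CALR the farthest, at -225 to -207. Neither form was found in the windows of DNAJB9, PDIA4 and EDEM1. The separate ends, which both forms contain, are common: CCAAT stood in 34.6% and CCACG in 38.1% of all promoters, and each stood in a window of all 10 genes. The first form stood both before HSPA5, which was higher at 12 hours, and before XBP1, which was lower.

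HSPA5, which encodes BiP, was higher at each later time point. Its log2 ratio was -1.40 in untreated cells, -1.16 at 3 hours, -0.67 at 6 hours and 0.11 at 12 hours. Its change from untreated was therefore 0.24, 0.73 and 1.51, or 1.18-fold, 1.66-fold and 2.85-fold higher. The 3-hour value lay just beyond 2 technical SDs (0.21), but in the authors' table it was 0.17, within them. The 2 later values lay far beyond them. In the Cy5 channel alone the normalized log2 signal was 8.51, 8.90, 9.21 and 9.86 in the same order, while the Cy3 reference changed by 0.15, -0.02 and -0.16. The 12-hour change ranked 93 of 20479 genes from the top. A probe signal in whole cultures does not tell a higher level per cell from more cells with that level, here or for any gene below.

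Transcripts of 2 partners of HSPA5, DNAJB9 and SDF2L1, had smaller changes than it at 12 hours. DNAJB9, also called ERdj4, is a J-domain partner that delivers misfolded proteins to HSPA5. Its log2 ratio was -1.93 in untreated cells, -1.13 at 3 hours, -1.35 at 6 hours and -1.13 at 12 hours. This is a change of 0.79, 0.58 and 0.80, so the difference was there by 3 hours, and the later steps were -0.22 and 0.22. The Cy3 reference of this probe was itself lower by 0.32, 0.27 and 0.39 than on the untreated array, and the Cy5 channel alone gave 0.47, 0.31 and 0.41. SDF2L1, a partner of the ER J-domain proteins, changed by 0.34, 0.40 and 0.69 in the ratio and by 0.18, 0.22 and 0.38 in Cy5 alone. Its ratio was -0.19, 0.15, 0.21 and 0.50 from untreated to 12 hours, the step from 3 to 6 hours (0.06) being within technical error. Under median centring the change of SDF2L1 was 0.13 at 6 hours and 0.22 at 12 hours, and that of DNAJB9 0.49 at 12 hours. The median of all genes was then -0.08 at 6 hours and -0.16 at 12 hours.

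HYOU1, the large Hsp70 of the ER that exchanges the nucleotide of HSPA5, did not follow it. Its log2 ratio was -0.08 in untreated cells, -0.10 at 3 hours, -0.14 at 6 hours and 0.08 at 12 hours. Changes of -0.03, -0.06 and 0.16 all lay within 2 technical SDs. The probe was dim, with a Cy5 signal of 163 to 226 units, which limits what it can show. Its normalized log2 Cy5 signal was 7.64 to 7.92, where the 11 markers of other cells averaged 7.54 to 7.60. At 12 hours 70.2% of the measured genes had a lower value than HYOU1.

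HSP90B1, the Hsp90 of the ER known as GRP94, was the only one of the genes with a second probe. The bright probe (A_23_P2601) gave ratios of -0.996, -0.75, -0.77 and -0.48 from untreated to 12 hours, hence changes of 0.25, 0.23 and 0.52. The dimmer probe (A_33_P3408212) gave changes of 0.39, 0.35 and 0.56, so both probes put the 12-hour value above the earlier ones. This gene depended on the scaling. When arrays were centred on their medians in place of loess, the bright probe changed by -0.08 at 6 hours and by -0.0016 at 12 hours, where the median of all genes was -0.08 and -0.16.

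CALR and PDIA4 serve glycoproteins and disulfide bonds. CALR encodes calreticulin, a calcium-binding lectin that holds glycoproteins until they fold. Its ratio was -0.14, 0.23, 0.45 and 0.59 from untreated to 12 hours, so every array was above the one before, with changes of 0.37, 0.59 and 0.73. PDIA4, which forms and reshuffles disulfide bonds, had a ratio of -0.78 in untreated cells, -0.17 at 3 hours, -0.19 at 6 hours and 0.21 at 12 hours. Its change of 0.61 at 3 hours was the same within technical error at 6 hours (0.59) and reached 0.99, or 1.99-fold, at 12 hours. In Cy5 alone the 12-hour change was 0.58 for CALR and 0.85 for PDIA4. Under median centring CALR changed by 0.40, 0.28 and 0.20 at 3, 6 and 12 hours, so the order of the treated arrays was reversed. The median of all genes was then 0.08, -0.08 and -0.16. The 12-hour change of PDIA4 under median centring was 0.62.

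The degradation factors differed in their timing. HERPUD1, a membrane protein that assembles the complex for ER-associated degradation, had a ratio of -2.51 in untreated cells, -2.78 at 3 hours, -2.39 at 6 hours and -1.13 at 12 hours. It was thus lower by 0.28 at 3 hours, within 2 technical SDs of untreated at 6 hours (0.11), and 1.38 higher, or 2.60-fold, at 12 hours. In Cy5 alone the changes were -0.07, 0.34 and 1.498, so that the 3-hour value was then within 2 technical SDs and the 6-hour value beyond them. The 12-hour array stood above the others in both readings. EDEM1, a mannosidase-like protein that takes misfolded glycoproteins out of the folding cycle, changed by 0.61, 0.71 and 0.65, so its difference from untreated was there by 3 hours. Its probe was dim, with Cy5 signals of 117 to 228 units, and with a background offset of 1 in place of 50 the 12-hour change was 0.91. Its normalized log2 Cy5 signal was 7.16 to 7.85, where the 11 markers of other cells averaged 7.54 to 7.60. A nonspecific part of its signal was therefore not told apart.

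**Figure D1:**
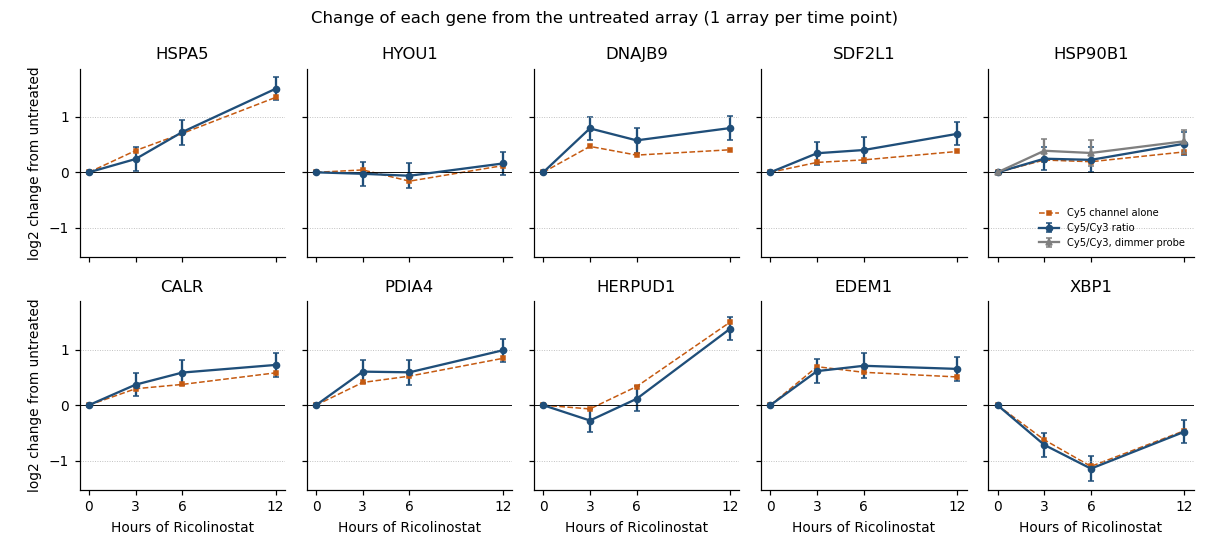
Log2 change of each of the 10 genes from the untreated array (y axis) against hours of Ricolinostat (x axis), with 1 array per time point and error bars of 2 technical SDs. Blue is the ratio of Cy5 over Cy3, orange the Cy5 channel alone and grey the dimmer probe of HSP90B1; HSPA5 and HERPUD1 end above 1, HYOU1 stays near 0 and XBP1 is below 0 at each time point.

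XBP1 was lower than in untreated cells at each time point. Its log2 ratio averaged over spots was -1.85 in untreated cells (SD 0.097, n = 10 spots), -2.57 at 3 hours (SD 0.056, n = 9), -3.00 at 6 hours (SD 0.088, n = 9) and -2.33 at 12 hours (SD 0.048, n = 10). These spots are technical repeats on 1 array each. The level was thus highest in untreated cells, next at 12 hours, then at 3 hours, and lowest at 6 hours. The spots of any 2 arrays did not overlap: they ran from -1.998 to -1.68 in untreated cells, -2.68 to -2.50 at 3 hours, -3.09 to -2.88 at 6 hours and -2.39 to -2.27 at 12 hours. On each of the arrays at 3 and 6 hours, 1 spot marked as an outlier by the scanner software was set aside.

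**Figure D2:**
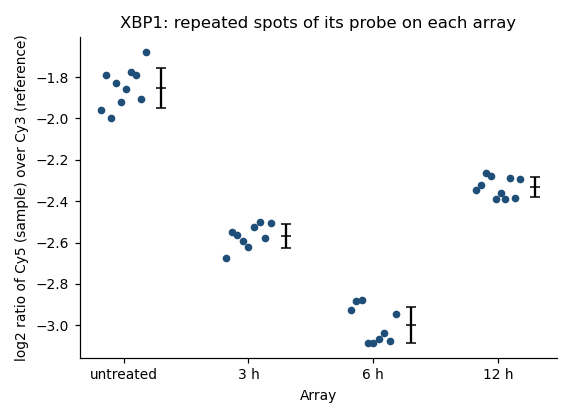
Log2 ratio of Cy5 over Cy3 (y axis) of each spot of the XBP1 probe on the 4 arrays (x axis), with the mean and SD of the spots at the right of each group; points are spread sideways for legibility. The 9 spots at 6 hours, from -3.09 to -2.88, lie below all spots of the other arrays.

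The mean change of XBP1 was -0.72, -1.15 and -0.48 at 3, 6 and 12 hours, or 0.609, 0.452 and 0.717 of the untreated level. Spot by spot it was below 0 in 9 of 9 spots at 3 hours (-0.83 to -0.55), in 9 of 9 at 6 hours (-1.29 to -0.89) and in 10 of 10 at 12 hours (-0.61 to -0.27). The Cy5 channel alone gave -0.63, -1.11 and -0.46, and the Cy3 reference moved by at most 0.09. From the lowest value up, XBP1 ranked 228 of 20766 genes at 3 hours, 116 of 20342 by 6 hours and 1548 of 20479 by 12 hours. Under median centring the 12-hour change was -0.91, with the median of all genes at -0.16. The position of the probe on the transcript was not used here, so spliced and unspliced XBP1 were not told apart and the activity of the factor was not measured.

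Over all 10 genes the median change was 0.30, 0.49 and 0.71 at 3, 6 and 12 hours, where the median of all measured genes was 0.0075, 0.016 and 0.014. In the same order 7, 8 and 9 of the 10 genes were above 0, as were 51.4%, 52.8% and 52.5% of all measured genes. At 3 hours none of the 10 was 2-fold higher (1.69% of all measured genes were) or 2-fold lower (0.366% of all). At the smaller size of 1.5-fold, DNAJB9, EDEM1 and PDIA4 were higher at 3 hours (3 of 10, 6.87% of all genes) and XBP1 was lower (1 of 10, 1.96% of all). At 6 hours none was 2-fold higher (2.81% of all), XBP1 was 2-fold lower (1 of 10, 0.939% of all), 4 were 1.5-fold higher (9.4% of all), namely HSPA5, EDEM1, PDIA4 and CALR, and XBP1 alone was 1.5-fold lower (4.42% of all). At 12 hours HSPA5 and HERPUD1 were 2-fold higher (2 of 10, 2.34% of all), none was 2-fold lower (1.12% of all), 7 were 1.5-fold higher (8.09% of all) and none was 1.5-fold lower (5.13% of all). The 7 were HSPA5, HERPUD1, PDIA4, DNAJB9, CALR, SDF2L1 and EDEM1. In the Cy5 channel alone, and likewise under median centring, 3 of them passed 1.5-fold at 12 hours, HSPA5, HERPUD1 and PDIA4. Under median centring XBP1 was then 1.5-fold lower. The share of all genes past 1.5-fold was not counted in these settings. The 12-hour median of all genes was -0.0069 in Cy5 alone and -0.16 under median centring.

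In the order of the 12-hour values, HSPA5 and HERPUD1 came first and differed by 0.13, less than 2 technical SDs of a difference between genes (0.30). A gap of 0.39, beyond that spread, set them apart from PDIA4. From PDIA4 down to HSP90B1 each neighbour differed from the next by 0.19 or less, within the spread. XBP1 lay 0.64 below HYOU1, beyond the spread. HYOU1 lay 0.36 below HSP90B1, but this gap was within the spread in Cy5 alone (0.25), in the authors' table (0.25), with an offset of 1 (0.25), with the scanner software's own signals (0.29) and under median centring (0.04). HERPUD1 was above HSPA5 in Cy5 alone and with the scanner software's signals, by 0.15 and 0.09, and 0.30 below it under median centring.

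The step from 6 to 12 hours does not involve the untreated array, and defects covered 0.199% of the spots at 6 hours and 0.0082% at 12 hours. The technical SD of this step was 0.069. Across the array it was quiet: 14 of 20717 genes, or 0.0676%, were at least 2-fold higher at 12 than at 6 hours, and 0.0579% were at least 2-fold lower. HERPUD1 was 1.26 higher (rank 4), the 1 gene of the 10 past 2-fold, and none of the 10 was 2-fold lower. HSPA5 was 0.78 higher (rank 33) and XBP1 0.67 higher (rank 59), the latter in 9 of 9 spots, from 0.58 to 0.75. PDIA4 was 0.40 higher, HSP90B1 and SDF2L1 0.29, DNAJB9 and HYOU1 0.22 and CALR 0.14. EDEM1 was the exception at -0.06, so 9 of the 10 were above 0, as were 48.6% of all genes. The smaller steps depended on the setting: under median centring CALR was at -0.08, HSP90B1 at 0.07, DNAJB9 at 0.08 and SDF2L1 at 0.09, and in Cy5 alone DNAJB9 was at 0.10, within 2 technical SDs (0.14). Under median centring the median change of all genes from untreated was itself lower at 12 hours (-0.16) than at 6 hours (-0.08). HERPUD1, HSPA5 and XBP1 kept steps of 1.098, 0.68 and 0.50 under median centring. The median of the 10 genes was 0.29 against -0.0056 for all genes. Between 3 and 6 hours the 10 genes had split evenly, 5 above and 5 below 0, with HSPA5 (0.49), HERPUD1 (0.39) and CALR (0.22) higher and XBP1 (-0.43) and DNAJB9 (-0.22) lower beyond 2 technical SDs (0.19). XBP1 was below untreated at 6 hours while HSPA5 was above it, and over the next interval both were higher.

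**Figure D3:**
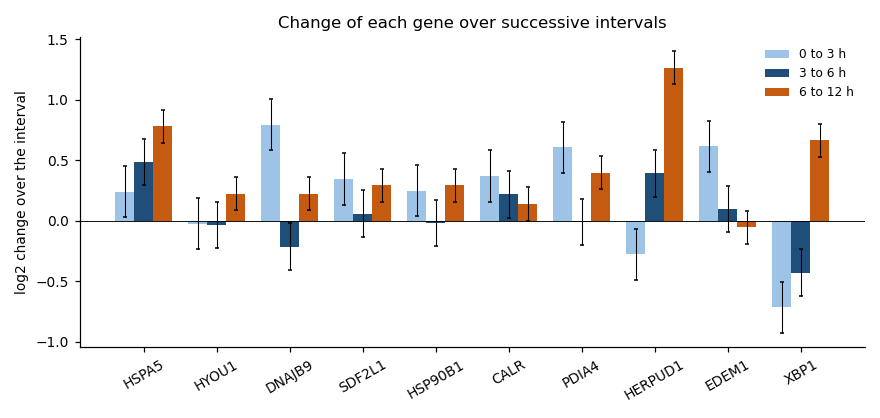
Log2 change of each gene (y axis) over the intervals from 0 to 3, 3 to 6 and 6 to 12 hours (bars, 1 array at each end), with error bars of 2 technical SDs. HERPUD1, HSPA5 and XBP1 have their tallest upward bar from 6 to 12 hours, at 1.26, 0.78 and 0.67.

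The other genes of the pathway were read in 8 lists, of which the median and the counts are given with no test. Of all measured genes, 51.4%, 52.8% and 52.5% were above 0 at 3, 6 and 12 hours. In the same order 6.87%, 9.4% and 8.09% were 1.5-fold higher and 1.96%, 4.42% and 5.13% were 1.5-fold lower. These shares were not counted in Cy5 alone. Among the 15 sensors and transcription factors, 14 had a change, and the list medians were -0.08, -0.16 and -0.06 at 3, 6 and 12 hours. EIF2AK3, which encodes the sensor PERK, was well above this, at 1.39, 1.63 and 1.36. ERN1, which encodes IRE1, changed by 0.52, 0.60 and 0.28, and a second probe of it by 0.06 at 12 hours. The ATF6 spot of the untreated array was marked as an outlier, so that sensor has no change from untreated, and its step from 6 to 12 hours was 0.11. NFYC, a subunit of the factor NF-Y that binds CCAAT, was at -0.92 at 12 hours, and 3 other probes of it gave -0.81 to -0.61. CREB3L2, a relative of ATF6, was at 1.47 on a probe with a spot in a damaged area and at 0.42 on another probe.

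The cofactors of HSPA5 and HSP90B1 had the highest 12-hour median of the 8 lists. The median of all 12 was 0.26, 0.51 and 0.40 at 3, 6 and 12 hours, 10 of 12 were above 0 at each time, and 4 were 1.5-fold higher at 12 hours. MANF, a secreted factor that binds HSPA5, changed by 0.66, 0.97 and 1.19. DNAJB11, a J-domain partner of HSPA5, changed by 0.69, 0.93 and 0.98. SIL1, which like HYOU1 exchanges the nucleotide of HSPA5, was at -0.19, -0.26 and -0.37. The lowest value, -2.09 for CNPY3, came from a probe with a spot in a damaged area, and its Cy5 channel alone gave -0.06 and 2 other probes -0.47 and -0.07.

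Disulfide isomerases and oxidases other than PDIA4 were shifted less. Of 12 measured, 11 were above 0 at 12 hours with a median of 0.23, and 7 of 12 in Cy5 alone with a median of 0.12. TXNDC12 was 1.5-fold higher (0.59), and in Cy5 alone no gene of this list was. TXNDC5 was the lowest at -0.10. The calnexin and calreticulin cycle, in which CALR works, lay at the level of all genes: its median over 9 genes was -0.07, -0.02 and 0.03, none passed 1.5-fold at any time, and values at 12 hours ran from -0.24 for CANX, which encodes calnexin, to 0.31 for MCFD2. CALR, at 0.73 at 12 hours, thus lay above all 9 genes of this list. A second probe of CANX gave 0.08 and a second probe of MCFD2 gave 0.57.

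The 22 genes of ER-associated degradation other than HERPUD1 and EDEM1 had medians of 0.26, 0.20 and 0.22, and 19 of 22 were above 0 at 12 hours, or 14 of 22 in Cy5 alone. SYVN1, the ubiquitin ligase of this pathway also called HRD1, changed by 0.83, 0.82 and 0.75. UBXN4, which recruits the extracting ATPase, changed by 1.02, 1.04 and 0.75. UBE2J1, a ubiquitin-conjugating enzyme of the ER, was at -0.45 at 12 hours. No gene of this list reached the 12-hour value of HERPUD1.

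Genes for translocation into the ER and transport out of it had medians of 0.18, 0.32 and 0.29 over 23 measured genes. SEC24D, a coat protein of vesicles leaving the ER, changed by 0.82, 1.23 and 1.44, and SRP54, a subunit of the signal recognition particle, by 0.78, 1.01 and 1.11. SRPR, which encodes the receptor of that particle, was the lowest at -0.30. At 12 hours SEC24D lay within the technical spread of HSPA5 (1.51) and SRP54 did not.

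Chaperones of the cytosol and mitochondria did not shift as a list, with medians of 0.05, 0.07 and 0.08 over 15 measured genes. Within it the stress-inducible Hsp70 genes stood apart: HSPA1A changed by 1.25, 1.81 and 1.19, and HSPA1B, a near-identical copy that the probes may not tell apart, by 1.23, 1.81 and 1.18. DNAJB1, their J-domain partner, changed by 0.55, 1.08 and 0.71. These 3 genes were highest at 6 hours, whereas HSPA5 was highest at 12 hours. The constitutive relative HSPA8 was lower, at -0.23, -0.21 and -0.39. HSP90AA1, the cytosolic counterpart of HSP90B1, changed by 0.14, 0.35 and 0.37, but by 0.04 in Cy5 alone at 12 hours.

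Downstream of PERK, the ATF4 branch had medians of -0.29, -0.27 and -0.07 over 12 measured genes. ATF3, a factor induced by many stresses, was at 1.66 at 12 hours, but its 3 other probes gave -0.06 to 0.78, and TRIB3, a target of this branch, was at -1.03, -1.45 and -0.89.

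**Figure D4:**
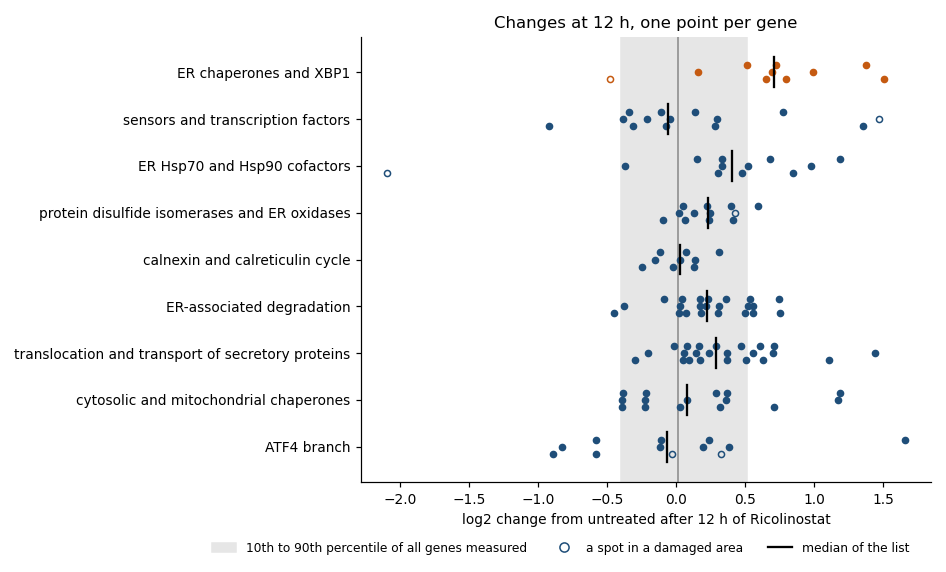
Log2 change from untreated after 12 hours of Ricolinostat (x axis) of each gene in the 10 genes and in the 8 lists (rows), 1 point per gene, with a black line at the median of a row, a grey line at the median of all genes measured and a grey band from their 10th to 90th percentile (-0.40 to 0.51). The ER chaperones and XBP1 have the rightmost median, 0.71, and open points have a spot in a damaged area.

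Genes elsewhere on the array followed the same courses. Over 19891 genes measured on all arrays, those closest to HSPA5 by Euclidean distance of the changes at 3, 6 and 12 hours were NRGN (0.33, 0.88 and 1.56, distance 0.19), CBX6 (0.34, 0.87 and 1.43, distance 0.19) and CNN3 (0.35, 0.83 and 1.30, distance 0.26). Close to XBP1 were F8A1 (-0.63, -1.08 and -0.57, distance 0.14), which has a spot in a damaged area, and ZYX (-0.66, -1.07 and -0.67, distance 0.21). None of the genes named here is among the genes of the lists.

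Other genes with the element are given for comparison. Outside the 10 genes, 37 gene symbols had a promoter with either form, and 23 of them were measured. Their median change was 0.04, 0.06 and 0.10 at 3, 6 and 12 hours, close to that of all genes. None was 2-fold higher or lower at any time. Of all genes 1.69%, 2.81% and 2.34% were 2-fold higher at 3, 6 and 12 hours, and 0.366%, 0.939% and 1.12% were 2-fold lower. At 1.5-fold, 2 of the 23 were higher at 3 hours (6.87% of all), 2 at 6 hours (9.4% of all) and none at 12 hours (8.09% of all). The counts at 3 and 6 hours were thus near the share of all genes. Values at 12 hours ran from -0.27 to 0.58. Above 0 were 15, 16 and 12 of the 23 at 3, 6 and 12 hours, as were 51.4%, 52.8% and 52.5% of all genes. CANX, PDIA6 and CRELD2 were among the 23, at -0.24, 0.24 and 0.15 at 12 hours. So were FICD, which changed by 0.73, 0.49 and 0.32, and SERP1, which changed by 0.49, 0.54 and 0.42. RAD9A, which was 1.5-fold higher at 3 and 6 hours, has a spot in a damaged area. FICD, 1.5-fold higher at 3 hours, and SETD3, 1.5-fold higher at 6 hours (0.74), have no spot in one. The set of genes with the element was formed after values of the arrays were known.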

How the data were processed

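RNA of SUM149 cells was labelled with Cy5 and the reference with Cy3, and 4 arrays were scanned, 1 per time point. The authors deposited spot intensity values per channel from Agilent Feature Extraction 12.0.1.1, with local background, flags and that software's log10 ratio of the dyes, and a table of normalized log2 ratios whose normalization is not given in the sources used here. Median spot intensity was corrected by normexp (offset 50), 2075 control spots of 62976 were dropped, spots with an outlier flag were set aside, and loess and Aquantile normalization were applied in limma 3.58.1 (R 4.3.3), which was tested on simulated data. The offset shrinks changes of dim probes. Repeated spots were averaged. Where a gene had several probes, the brightest in Cy3 stood for it. A probe passed when over 50% of its spots were well above background. Time points were not compared by a test, and precision is limited by how few arrays there are. Counts used 2-fold and 1.5-fold thresholds. Damaged areas were windows of 13 rows and 7 columns in which at least 10% of spots had a Cy3 signal over 2-fold from the median of the arrays or an outlier flag. Summaries were made in Python 3.11.15 with numpy 2.4.6 and pandas 2.3.3. The members, the lists and the rules were chosen with earlier results of these data known. In each list, the gene with the highest and the gene with the lowest 12-hour value are named, with every gene past 2-fold at 12 hours, selected sensors and cytosolic relatives, and the 3 nearest genes to HSPA5 and XBP1, of which 1 is not reported here. UBXN4, DNAJB11, PDIA6, CRELD2, RAD9A, FICD, SERP1 and SETD3 were named after their values were seen. Promoters come from RefSeq (GRCh38.p14), a build other than that of the array design, and no probe coordinates are given. The planned description of protein ends was not made. Alternatives were the correction of background, the normalization, the Cy5 channel alone, the authors' table, the probes of a gene, the damaged areas, the threshold and the filter on dim probes.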

Additional observations from a re-analysis of the deposited data

Results flagged for a closer look

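HERPUD1 changed in opposite directions at different times: its log2 change from untreated was -0.28 at 3 hours against 0.11 at 6 hours, and -0.28 at 3 hours against 1.38 at 12 hours. With 1 array per time point this difference was not tested, and the 6-hour value lies within 2 technical SDs of 0. Its Cy3 reference was 0.21 and 0.22 higher than on the untreated array at 3 and 6 hours and 0.12 higher at 12 hours, and in the Cy5 channel alone the 3 changes were -0.07, 0.34 and 1.498. The part of the reference in the 3-hour value was not tested.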

How the results depend on the processing

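Of 30 values (10 genes at 3 times), median centring moved 22 by more than 1 technical SD, the Cy5 channel alone 18, the scanner software's own signals 9, the authors' values 4, an offset of 1 moved 3 and no background subtraction 1. The choice of probe could move only HSP90B1. Leaving out damaged areas could move none of the 10 genes, because the 1 spot of XBP1 in such an area was already set aside as an outlier. In all, 6 values changed sign, 5 under median centring and 1 in Cy5 alone. The median change of the 10 genes moved under median centring to 0.20 at 6 hours and 0.35 at 12 hours, where the median of all genes was -0.08 and -0.16, and in the Cy5 channel alone to 0.32 at 6 hours and 0.46 at 12 hours. The count of genes at least 2-fold higher at 12 hours was 1 under median centring, HERPUD1 being at 0.98. At a threshold of 1.5-fold 3 genes were higher at 3 hours, 4 genes at 6 hours and 7 genes at 12 hours, and 1 gene was lower at 3 hours. The counts higher were 1, 2 and 3 in Cy5 alone, 3, 2 and 3 under median centring, 2, 2 and 7 with an offset of 1, and 3, 2 and 7 in the authors' table. Shares of all genes were not counted for these settings, so such counts have no background to be read against. The causes were not tested. Over all settings XBP1 stayed below 0 at each time (-0.91 to -0.46 at 12 hours) and HSPA5 above 0 (1.29 to 1.61 at 12 hours). No paired analysis was possible because the labels give 1 array for each time, and for the same reason no array was left out. Companion lists without genes in damaged areas, and the second form of the promoter element, were added after seeing the data. The 12-hour median of the cofactors was then 0.48. Dim probes (HYOU1, EDEM1) limit what can be seen of these genes.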
